A study of Mus musculus with 6 samples.

Results

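Txnip and 4 arrestin domain-containing genes, Arrdc1, Arrdc2, Arrdc3 and Arrdc4, were taken by symbol from a table of raw counts for 14665 protein-coding genes. All 5 symbols were found, and all 5 genes passed the filter on low counts that left 11104 genes for testing. The RNA came from C17.2 cells, a mouse neural stem cell line of wild-type genotype that was immortalized with an oncogene, so every library derives from 1 line. In the hypoxia/reoxygenation (H/R) group the cells spent 12 h at 5% oxygen and then 48 h at standard oxygen, and in the control group they stayed at standard oxygen. Both groups grew in serum-containing DMEM, whose glucose level is not given in the sources used here. Each group had 3 libraries of ribosome-depleted total RNA, and nothing states that they came from separate cultures, so the errors below measure the spread between libraries, which may be technical. Txnip, Arrdc3 and Arrdc4 had more RNA in every H/R library than in any control library, whereas the groups overlapped for Arrdc1 and Arrdc2. The genes were chosen by family and with their H/R against control counts in these same libraries in view, so their differences are given as a description, and no significance is read from them.

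Alpha-arrestins are adaptor proteins that share the arrestin fold with the beta-arrestins of G protein-coupled receptor signalling. Most carry PPxY motifs through which they bind ubiquitin ligases of the NEDD4 family, and they bring these ligases to membrane proteins that are then internalised and sorted to lysosomes. Txnip, the member studied most, also binds and inhibits thioredoxin, and it lowers glucose uptake by promoting internalisation of the glucose transporter GLUT1. Transcription of Txnip, and of Arrdc4, is induced by glucose through the factor pair MondoA and Mlx.

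The promoters of the genes that differed are shown here because Txnip and Arrdc4, named above as induced through MondoA, were among them. Whether MondoA acted on them in these cells was not tested. The 250 bases upstream of a RefSeq transcript start (assembly GRCm38.p6, the build of mm10) are written 5′ to 3′ on the gene's strand. Capitals mark CCAAT, the site of the factor NF-Y, CACGNG, the element that MondoA and related factors bind in pairs, and GTAAACA, a forkhead site, each searched on both strands.
Txnip, chr3:96557707-96557956, plus strand: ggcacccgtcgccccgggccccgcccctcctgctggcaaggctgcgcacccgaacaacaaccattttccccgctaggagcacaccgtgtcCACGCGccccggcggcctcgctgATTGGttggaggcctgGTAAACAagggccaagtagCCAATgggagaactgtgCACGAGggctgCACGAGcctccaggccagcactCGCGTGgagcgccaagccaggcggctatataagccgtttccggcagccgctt
Arrdc4, chr7:68749239-68749488, minus strand: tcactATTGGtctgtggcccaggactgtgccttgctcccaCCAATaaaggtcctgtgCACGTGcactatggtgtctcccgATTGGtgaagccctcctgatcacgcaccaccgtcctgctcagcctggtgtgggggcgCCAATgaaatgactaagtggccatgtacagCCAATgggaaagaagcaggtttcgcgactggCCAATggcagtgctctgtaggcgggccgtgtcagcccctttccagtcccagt
Arrdc3, chr13:80883134-80883383, plus strand: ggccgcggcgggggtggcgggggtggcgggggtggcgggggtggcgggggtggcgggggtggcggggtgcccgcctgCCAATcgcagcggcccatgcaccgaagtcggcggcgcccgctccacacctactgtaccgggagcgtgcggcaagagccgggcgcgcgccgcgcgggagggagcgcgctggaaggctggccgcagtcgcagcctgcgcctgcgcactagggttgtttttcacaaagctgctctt

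The Txnip window held 4 matches to CACGNG, and 2 of them, CACGAG at −85 to −80 and CACGAG at −74 to −69 from the start, were 5 bases apart. A pair of CACGNG on 1 strand with that spacing occurred in 15 of 32851 RefSeq promoter windows of the same length (0.0457%). At least 1 CACGNG was present in 23.5% of windows, and 4 or more in 0.244%. Txnip also had 2 CCAAT matches and 1 GTAAACA, which 33.8% and 3.17% of windows held at least once. The Arrdc4 window had 6 CCAAT matches, a number reached by 19 windows (0.0578%), and 1 CACGTG at −193 to −188, a palindrome that is also a CACGNG match and was present in 6.02% of windows. The Arrdc3 window at the gene start had 1 CCAAT and neither of the other elements. Of the genes whose groups overlapped, Arrdc2 had 3 CCAAT and 1 CACGNG, and Arrdc1 had 2 CACGNG and no CCAAT. A match describes the letters only, and binding was not measured in these libraries.

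Depth differed between the groups. Gene counts summed to between 15639751 and 16830389 per H/R library and between 7267809 and 8371882 per control library. CPM here is a count brought to a common library total with scaling factors from the trimmed mean of M-values (TMM), and log2 fold changes are H/R over control from the edgeR quasi-likelihood fit over all 11104 genes. With TMM the median log2 fold change of all tested genes was 0.01, and with library totals alone it was 0.22. As a check of the cell type, 4 of 7 listed neural stem cell markers could be looked at. These were Nes, Sox2, Msi1 and Vim, which were all detected, and their summed level was 1641 to 1732 CPM in H/R against 1402 to 1495 CPM in control. Most of that sum was Vim, at 1290 to 1353 CPM in H/R and 1175 to 1276 CPM in control. Nes was at 313 to 351 CPM in H/R and 184 to 214 CPM in control, while the groups overlapped for Sox2 and Msi1. The other 3, Pax6, Prom1 and Fabp7, are not analysed here, so the check rests on 4 markers. Summed markers of neurons were 32.8 to 37.9 CPM in H/R against 73.2 to 81.1 CPM in control, nearly all of it Map2. Of 4 listed microglia markers, only Cx3cr1 could be looked at, and it reached at most 0.353 CPM in H/R and 0.650 CPM in control. The part of these marker levels in the results below was not tested. In bulk RNA, fewer cells that express a gene and less of its RNA per cell cannot be told apart.

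Txnip lies on chromosome 3 (mm10, chr3:96557957-96561883, plus strand). It had 2717, 2416 and 2362 counts in H/R replicates 1, 2 and 3, against 551, 435 and 324 in the control replicates. After scaling this was 149, 144 and 139 CPM in H/R and 71.0, 56.5 and 48.5 CPM in control, so the lowest H/R library stood 1.96-fold above the highest control. Group means were 144.0 ± 5.22 CPM in H/R and 58.7 ± 11.4 CPM in control (SD, n = 3 each). The log2 fold change was 1.29 (SE 0.13). The control libraries were the more variable ones, with a coefficient of variation of 3.63% in H/R and 19.5% in control.

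Arrdc3, an adaptor that promotes ubiquitination of integrin beta4, showed the largest difference of the 5 genes (chr13:80883384-80896042, plus strand). Its counts were 2674, 2316 and 2486 in H/R and 254, 257 and 297 in control. The scaled levels were 147, 138 and 146 CPM in H/R against 32.7, 33.4 and 44.5 CPM in control. No library of either group came near the other, and the lowest H/R value was 3.10-fold the highest control value. The means were 143.7 ± 5.25 CPM in H/R and 36.9 ± 6.59 CPM in control (SD, n = 3 each), a log2 fold change of 1.97 (SE 0.13). By this value Arrdc3 ranked 127 of the 11104 tested genes, Arrdc4 209 and Txnip 427, counting from the largest increase.

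Arrdc4, the closest relative of Txnip among these genes and also able to lower glucose uptake, lies on the minus strand of chromosome 7 (chr7:68736995-68749241). Its level was 16.4, 14.4 and 21.7 CPM in H/R and 5.16, 6.37 and 4.34 CPM in control, from 299, 243 and 369 counts in H/R and 40, 49 and 29 counts in control. The groups did not overlap, and the gap between the lowest H/R and the highest control library was 2.27-fold. Means were 17.5 ± 3.76 CPM in H/R and 5.29 ± 1.02 CPM in control (SD, n = 3 each), with a log2 fold change of 1.72 (SE 0.25).

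Arrdc2 was near its control level. This alpha-arrestin, on chromosome 8 (chr8:70835129-70839720, minus strand), was measured at 5.39, 10.2 and 8.83 CPM in H/R and at 5.80, 7.40 and 6.44 CPM in control. H/R replicate 1 was the lowest of all 6 libraries and H/R replicates 2 and 3 the highest. The log2 fold change was 0.31 (SE 0.30), and it was between 0.12 and 0.54 when single libraries were left out.

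Arrdc1, which recruits the ESCRT protein TSG101 to the plasma membrane and drives budding of small vesicles, was counted too rarely for a difference of moderate size to be seen (chr2:24925352-24935252, minus strand). It had 39, 20 and 21 counts in H/R and 10, 20 and 2 counts in control. In CPM these were 2.15, 1.19 and 1.24 in H/R against 1.29, 2.60 and 0.299 in control, with the highest and the lowest library both in the control group. The log2 fold change was 0.11 with an SE of 0.68, and it changed sign with single libraries left out, from −0.35 to 0.89.

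In count terms, 3 of the 5 genes passed an adjusted p under 0.05 as higher in the edgeR fit over all genes, and 18.8% of all tested genes did so. The same 3 had every H/R library above every control library, which held for 25.7% of all tested genes. Nothing is read from these counts, since the genes were named with the contrast known.

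**Figure D1:**
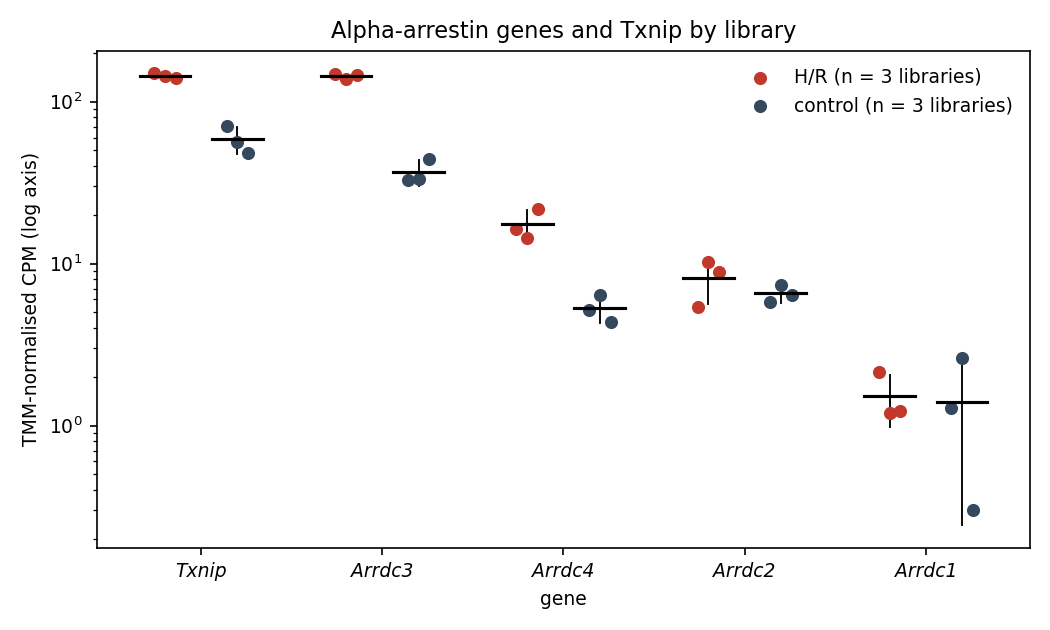
TMM-normalised CPM (log axis) of the 5 genes in each library, with H/R left of control; points are libraries, horizontal lines means and vertical lines SD over 3 libraries. The H/R points of Txnip, Arrdc3 and Arrdc4 lie above all control points, with means of 144.0, 143.7 and 17.5 CPM against 58.7, 36.9 and 5.29 CPM, and the points of Arrdc2 and Arrdc1 overlap.

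To compare levels between genes, CPM was divided by the length of each gene's merged exons. Txnip was the most abundant in both groups, at 46.1 ± 1.67 CPM per kb in H/R and 18.8 ± 3.66 CPM per kb in control. Arrdc3 followed at 22.9 ± 0.837 CPM per kb in H/R and 5.88 ± 1.05 CPM per kb in control. The order of the next genes depended on the length used. With merged exons, in H/R, Arrdc4 at 3.58 to 5.38 CPM per kb lay above Arrdc2 at 1.67 to 3.16 CPM per kb. In control, Arrdc4 at 1.08 to 1.58 CPM per kb lay below Arrdc2 at 1.80 to 2.29 CPM per kb. With the longest coding transcript as the length, Arrdc4 at 3.70 to 5.56 and Arrdc2 at 2.29 to 4.34 CPM per kb overlapped in H/R, with Arrdc2 the higher in H/R replicate 2, while in control Arrdc4 stayed below Arrdc2. The Arrdc1 gene count was lowest per kb by its mean, at 0.607 ± 0.215 CPM per kb in H/R and 0.556 ± 0.459 CPM per kb in control, where its highest library, at 1.04 CPM per kb, nearly reached the lowest of Arrdc4. Nearly all Arrdc1 gene counts were matched in number by counts of its noncoding transcripts, so this value may not measure its mRNA.

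Summed over the 5 genes, the family amounted to 75.1 to 77.9 CPM per kb in H/R and 25.8 to 31.6 CPM per kb in control. Txnip made up 58.2 to 61.4% of that sum in H/R and 60.2 to 72.1% in control, ranges that overlap. Arrdc3 made up 29.2 to 30.5% in H/R and 16.6 to 27.5% in control, so its share was higher in every H/R library. The share of Arrdc2 was 2.14 to 4.21% in H/R and 5.69 to 8.09% in control. Among 11032 tested genes ranked by level per kb, Txnip stood at percentile 92.1 to 92.9 in H/R libraries and 71.2 to 80.6 in control libraries, and Arrdc3 at 79.7 to 81.5 in H/R and 40.2 to 48.7 in control.

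Ratios of raw counts within a library do not depend on scaling. Arrdc3 had 0.984, 0.959 and 1.05 counts per Txnip count in H/R replicates 1, 2 and 3, against 0.461, 0.591 and 0.917 in the control replicates. The H/R ratios were the higher ones, although control replicate 3 came close to them. Arrdc4 had 0.110, 0.101 and 0.156 counts per Txnip count in H/R and 0.0726, 0.113 and 0.0895 in control, which overlap. Arrdc2 had 0.0361, 0.0712 and 0.0635 counts per Txnip count in H/R and 0.0817, 0.131 and 0.133 in control, so that Txnip gained on Arrdc2 in every H/R library.

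**Figure D2:**
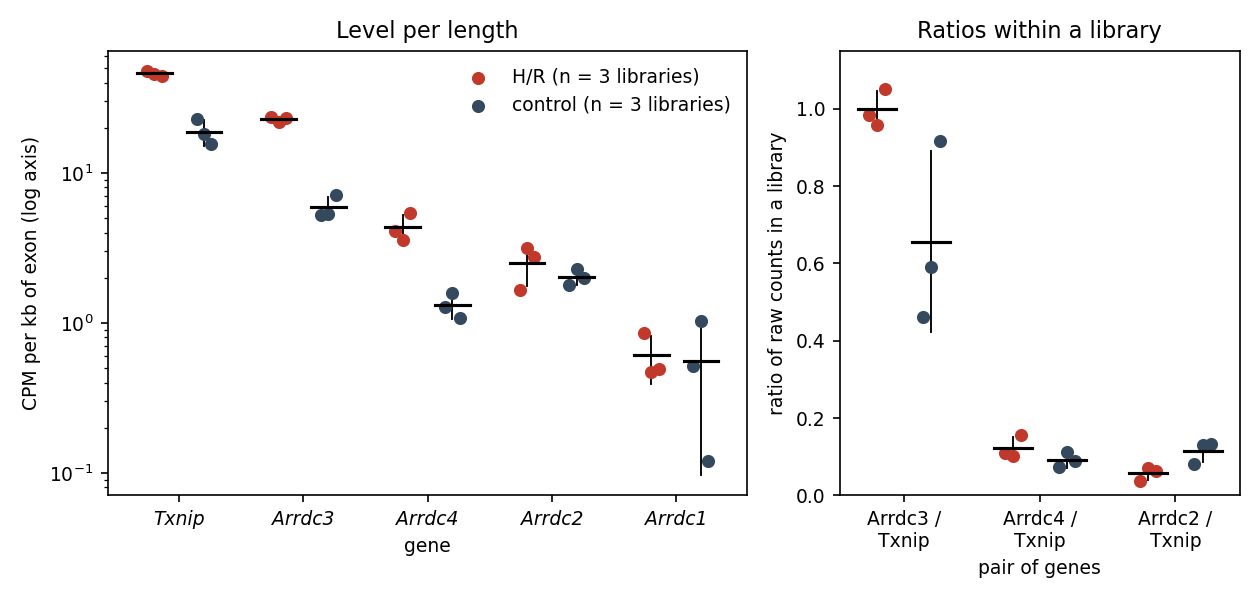
Left, CPM per kb of merged exon (log axis) of the 5 genes; right, raw-count ratios to Txnip within each library; H/R is left of control, points are libraries, horizontal lines means and vertical lines SD over 3 libraries. With this length Arrdc4 lies above Arrdc2 in H/R and below it in control (with the longest coding transcript the H/R ranges overlap), and the Arrdc3 to Txnip ratio is 0.959 to 1.05 in H/R and 0.461 to 0.917 in control.

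The genes most like each member were found among 9514 tested genes averaging at least 5 CPM, by the root mean square difference of centred log2 CPM over the 6 libraries. Nearest to Txnip were Lss (0.056), which encodes lanosterol synthase, Gmnn (0.068), which encodes the replication inhibitor geminin, and Lox (0.079), which encodes lysyl oxidase. Nearest to Arrdc3 were Gm10282 (0.092), Chst2 (0.125) and Cyp51 (0.165), and nearest to Arrdc4 were Arhgap11a (0.0996), Klhdc8a (0.124) and Mad2l1 (0.134). For Arrdc2 they were Gm5113 (0.093), Polr2k (0.131) and Immp1l (0.134). Arrdc1 had no gene as near, the first being Mboat1 (0.281), Psmg3 (0.304) and Ubash3b (0.394). Its own mean was 1.523 CPM in H/R and 1.395 CPM in control, under the 5 CPM asked of the genes searched, so genes at its level were left out. For every member the distance includes the difference between the groups. Between the members themselves, the difference was 0.326 for Txnip and Arrdc4, 0.349 for Arrdc3 and Arrdc4, 0.441 for Txnip and Arrdc3, and 0.642 to 1.20 for the pairs that include Arrdc1 or Arrdc2.

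A second table, of counts per lncRNA transcript, held 7 transcripts beside these genes, of 23098 transcripts in all. Of the 7, 4 were beside Arrdc3, 2 beside Arrdc1 and 1 beside Arrdc4, with none listed for Txnip or Arrdc2. The most abundant was ENSMUST00000159090, a retained-intron transcript of Arrdc3 (chr13:80883384-80889643, plus strand) with 2 exons and a length of 2784 bases. Of its bases, 2034 (73.1%) lie outside the exons of protein-coding Arrdc3 transcripts. Of these, 26 lie upstream of the first such exon. In the others, stretches of 1601 and 407 bases, it reads through splice sites that the mRNA uses. The 2 places where it does so are shown, with 30 exonic bases in lower case and the first 30 intronic bases in capitals.
Arrdc3 first read-through, chr13:80887458-80887517: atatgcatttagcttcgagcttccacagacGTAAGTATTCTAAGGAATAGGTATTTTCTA
Arrdc3 second read-through, chr13:80889207-80889266: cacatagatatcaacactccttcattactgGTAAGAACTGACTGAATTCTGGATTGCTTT

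ENSMUST00000159090 had 288, 250 and 300 counts in H/R replicates 1, 2 and 3, against 25, 17 and 9 counts in the control replicates. Scaled within the lncRNA table this was 241.5 ± 17.2 CPM in H/R and 28.4 ± 10.96 CPM in control (SD, n = 3 each), with no overlap. The log2 fold change was 3.06 (SE 0.30), a description like those of the genes. It passed the adjusted p of 0.05 as higher, as did 2.67% of the 6779 lncRNA transcripts tested, and 13.2% of them had every H/R library above every control library.

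Per 100 counts of the Arrdc3 gene, this transcript had 10.8, 10.8 and 12.1 counts in H/R and 9.84, 6.62 and 3.03 counts in control. All H/R ratios were above all control ratios. The exact 95% binomial interval of H/R replicate 1 was 9.62 to 12.0, and that of control replicate 1 was 6.47 to 14.2, so those libraries did not differ beyond counting error. Control replicate 3, with an interval of 1.40 to 5.67, was below every H/R interval. Intervals cover counting error only, as reads amplified by PCR are not independent molecules. It is not stated whether a read could be counted in both tables, and inside an intron this transcript and unspliced Arrdc3 RNA cannot be told apart.

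The other transcripts beside Arrdc3 were rare, and none passed the filter on low counts. 1700023H06Rik (ENSMUST00000161006, chr13:80884224-80885524), on the opposite strand within the first Arrdc3 intron, had 18, 12 and 8 counts in H/R and 0 in every control library. Against a floor of 3 counts over the control group it was at least 6.38-fold higher in H/R. The strand setting of the counting is not given, so its reads and those of the Arrdc3 intron cannot be told apart. ENSMUST00000159690, annotated for nonsense-mediated decay, had 2, 2 and 4 counts in H/R and 0 in control, and ENSMUST00000159856, with a retained intron, had 3, 1 and 1 counts in H/R and 0 in control.

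**Figure D3:**
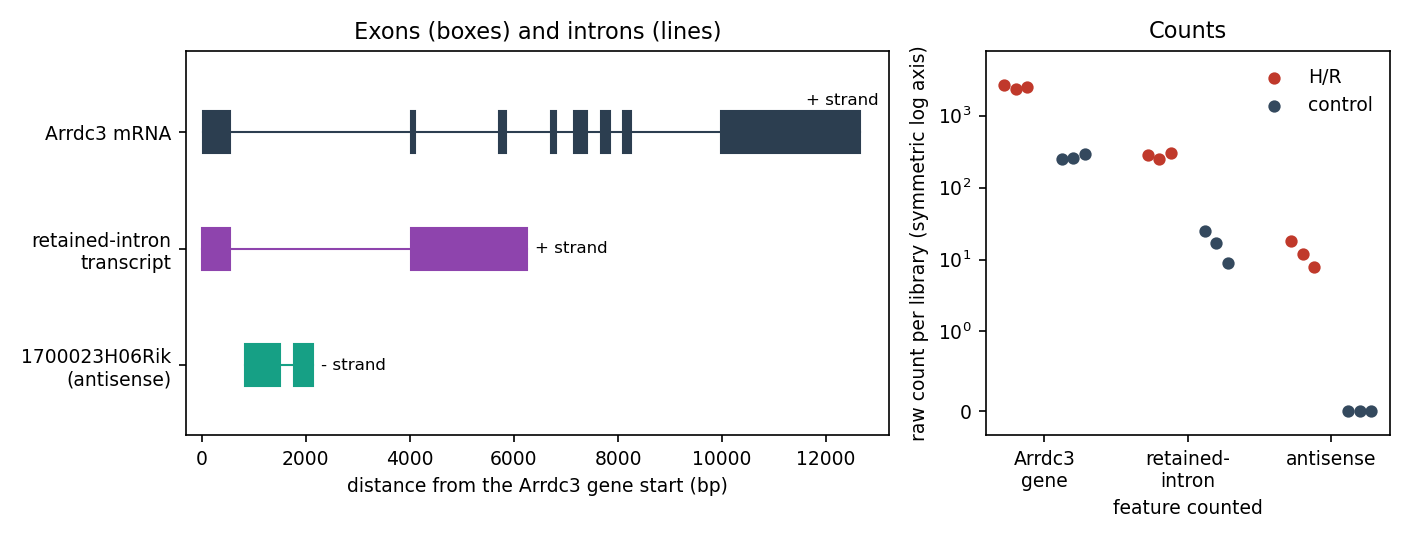
Left, exons (boxes) and introns (lines) of the Arrdc3 mRNA, the retained-intron transcript ENSMUST00000159090 and the antisense transcript of 1700023H06Rik by distance from the gene start in bp; right, raw counts per library (symmetric log axis) with H/R left of control. The retained-intron transcript had 250 to 300 counts in H/R and 9 to 25 in control, and the antisense transcript 8 to 18 in H/R and 0 in control.

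At Arrdc1 the lncRNA table and the gene table held nearly the same numbers. The retained-intron transcript ENSMUST00000133396 (chr2:24927284-24935188, minus strand) had 31, 15 and 21 counts in H/R and 10, 20 and 2 counts in control, and ENSMUST00000156706 had 6, 4 and 0 counts in H/R and 0 in control. Together they came to 37 of 39, 19 of 20 and 21 of 21 Arrdc1 gene counts in H/R, and to 10 of 10, 20 of 20 and 2 of 2 in control. Over all 6 libraries that is 97.3 per 100 gene counts, a level reached by 51 of 5717 genes with such transcripts and at least 50 counts (0.892%, median 2.47). For Arrdc3 the same ratio was 10.9 and for Arrdc4 0.292. ENSMUST00000133396 has 445 of 717 bases (62.1%) outside the exons of coding transcripts, and it runs past the splice site shown next, in the same capitals.
Arrdc1 read-through, chr2:24927699-24927758, minus strand: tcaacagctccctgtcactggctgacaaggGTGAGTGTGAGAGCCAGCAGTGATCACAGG

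Its log2 fold change was 0.12 (SE 0.72), so neither count of Arrdc1 separated the groups. The Arrdc4 transcript ENSMUST00000132396 had 3 counts in H/R replicate 3 and 0 in the other 5 libraries. The circRNA table listed 0 circRNAs for each of the 5 genes.

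Around these genes, 8 lists of partners, regulators and cargo were examined in the test over all genes (edgeR quasi-likelihood, two-sided, Benjamini-Hochberg adjusted p under 0.05). They name 81 gene symbols, of which 71 were in the table and 67 were tested. Of the tested genes, 8 were higher in H/R (11.9%, against 18.8% of all tested genes) and 13 were lower (19.4%, against 19.0%). The median log2 fold change over the 67 genes was −0.08, beside 0.01 over all tested genes.

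Among 6 known cargo proteins of alpha-arrestins that were tested, 3 genes were higher and 2 lower, with a median of 0.31. Slc2a1, which encodes the glucose transporter GLUT1, fell to 55.2, 55.7 and 44.1 CPM in H/R libraries, against 122, 152 and 135 CPM in control libraries. Its log2 fold change was −1.40 (SE 0.12, adjusted p = 2.6e-06 by edgeR), with all 3 H/R libraries below all controls. The share of all tested genes with such separation is not given here, while 19.0% of them were called lower. Insr, the insulin receptor, fell by 0.38 on the log2 scale (adjusted p = 0.00231), and not past the threshold without scaling factors. Notch1 rose by 0.81 (adjusted p = 0.00153), to 32.8 ± 3.88 CPM in H/R against 18.8 ± 2.09 CPM in control (SD, n = 3 each). F2r, the thrombin receptor, rose by 0.46 (adjusted p = 0.0134), and the iron transporter gene Slc11a2 by 0.32 (adjusted p = 0.0423). The F2r call was lost without H/R replicate 3 (adjusted p = 0.0556), and that of Slc11a2 when any library but control replicate 1 was left out (adjusted p = 0.0764 to 0.167) and with RLE size factors (adjusted p = 0.0508).

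In the list for glucose use, 2 of 8 genes were lower and none higher, with a median of −0.12. Hk2, the hexokinase that begins glycolysis, averaged 57.1 ± 1.06 CPM in H/R and 145.4 ± 10.1 CPM in control (SD, n = 3 each), a log2 fold change of −1.35 (adjusted p = 5.59e-07 by edgeR). Pdk1, which restrains pyruvate oxidation in mitochondria, averaged 40.2 ± 3.36 CPM in H/R and 76.3 ± 16.2 CPM in control, a log2 fold change of −0.93 (adjusted p = 3.43e-04). Both had all H/R libraries below all control libraries. How many of all tested genes separated in that direction is not given here, while 19.0% of them were called lower. Hk1 and Pkm, at log2 fold changes of 0.17 and 0.02, did not pass the test.

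Of the transcription factors known at the Txnip promoter, 1 of 11 was higher and none lower, with a median of 0.08. Nfya, a subunit of the CCAAT-binding factor, rose to 109.3 ± 8.92 CPM in H/R against 71.0 ± 9.16 CPM in control (SD, n = 3 each; log2 fold change 0.62, adjusted p = 9.93e-04 by edgeR). Its partners Nfyb and Nfyc had log2 fold changes of 0.07 and −0.03 and did not pass. Neither did Mlxip, which encodes MondoA, at −0.05 (SE 0.11), nor Mlx at −0.26 (SE 0.17).

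In the thioredoxin system, whose cytosolic thioredoxin is the target of Txnip, 1 of 12 genes was lower and none higher, with a median of −0.13. Txn1 stood at 165.5 ± 8.09 CPM in H/R and 163.3 ± 10.7 CPM in control (SD, n = 3 each), a log2 fold change of 0.02 (SE 0.09). The gene that changed was Txn2, which encodes mitochondrial thioredoxin, at 100.9 ± 3.95 CPM in H/R and 135.5 ± 16.7 CPM in control (log2 fold change −0.43, adjusted p = 0.00715 by edgeR). That call was not made without scaling factors.

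Of 9 NEDD4-family ligases and adaptors tested, 3 were lower and none higher, with a median of −0.02. Nedd4l fell by 0.85 on the log2 scale (adjusted p = 4.8e-04 by edgeR), to 54.6 ± 6.40 CPM in H/R against 98.8 ± 20.5 CPM in control (SD, n = 3 each). Ndfip2, an adaptor that activates these ligases, fell by 0.47 (adjusted p = 0.00137). Nedd4 itself differed little, with a log2 fold change of −0.20 (adjusted p = 0.045) that was 0.01 without scaling factors and lost its call when any library but control replicate 3 was left out (adjusted p up to 0.177).

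In the ESCRT list, which holds the machinery that sorts ubiquitinated cargo and that Arrdc1 recruits, 2 of 14 genes were higher and 5 lower, with a median of −0.16. Vps4a, an ATPase that disassembles ESCRT-III, rose by 0.67 (adjusted p = 8.98e-04 by edgeR), whereas its paralog Vps4b fell by 0.48 (adjusted p = 0.00336). Stam fell by 0.59 (adjusted p = 7.07e-04), Mvb12a by 0.86 (adjusted p = 0.00199) and Stam2 by 0.42 (adjusted p = 0.0198). Mvb12b rose by 0.43 (adjusted p = 0.0286), with groups that overlapped. Vps37b fell by 0.76 (adjusted p = 0.0458), and its groups overlapped too. Leaving out control replicate 2 or 3 or H/R replicate 2 or 3 ended the Stam2 call (adjusted p = 0.0522 to 0.0978), and leaving out control replicate 2 or H/R replicate 1 or 2 ended that of Mvb12b (adjusted p = 0.104 to 0.129). Without scaling factors Vps4b was at −0.26 (adjusted p = 0.0571) and Stam2 at −0.21 (adjusted p = 0.208), and neither was called. Tsg101, the partner of Arrdc1, had a log2 fold change of −0.08 and did not pass.

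Of 6 other genes with the arrestin fold that were tested, 2 were higher and none lower, with a median of −0.38. Vps26b, a retromer subunit, rose by 0.60 (adjusted p = 0.00136 by edgeR), and Arrb2, which encodes beta-arrestin 2, by 0.58 (adjusted p = 0.0416). The other beta-arrestin gene, Arrb1, went the other way at −1.67 from 8 to 39 counts per library, and it did not pass (adjusted p = 0.0587). The Arrb2 call was lost without control replicate 1 (adjusted p = 0.124) and without any single H/R library (adjusted p = 0.0767 to 0.135). Arrdc5, a further alpha-arrestin, had 1 count in H/R replicate 1 and 0 in the other 5 libraries. In the inflammasome list, which was included because Txnip binds NLRP3, only Il18 could be tested, at a log2 fold change of −0.24 (adjusted p = 0.379).

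**Figure D4:**
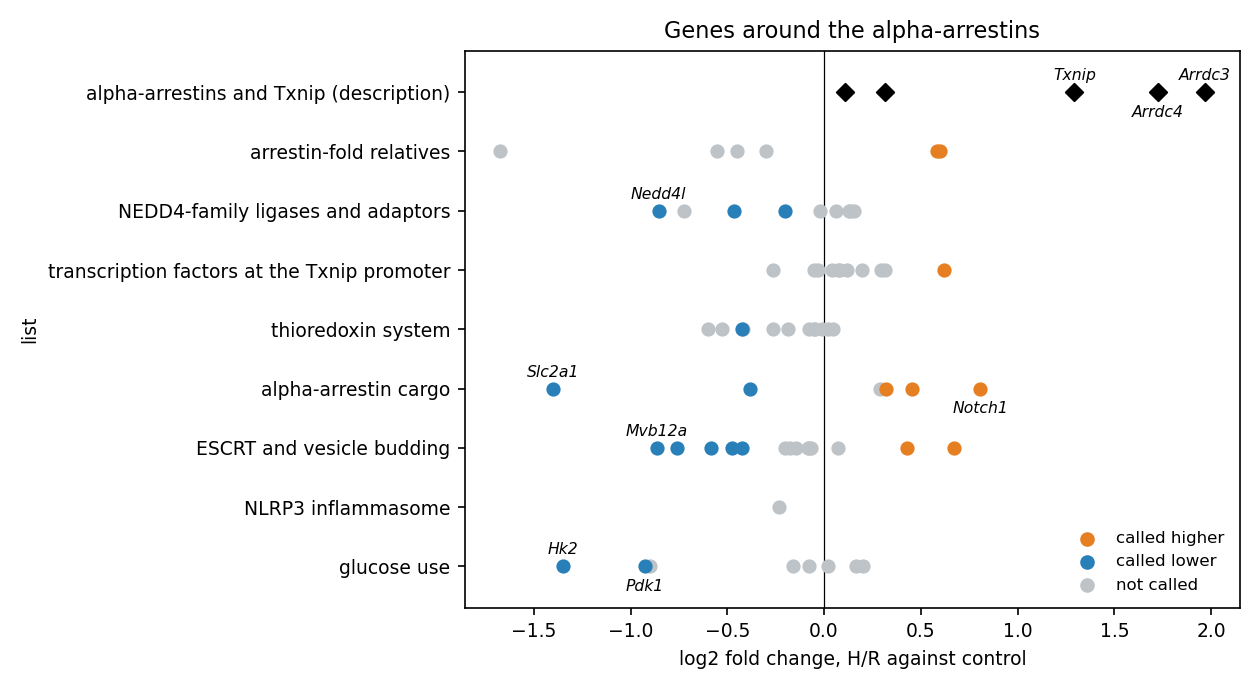
Log2 fold change (H/R against control) of the 5 genes (black diamonds, given as a description) and of the tested genes of 8 related lists, coloured by call at an adjusted p of 0.05 in edgeR. Arrdc3, Arrdc4 and Txnip lie at 1.97, 1.72 and 1.29, and Slc2a1 and Hk2 at −1.40 and −1.35.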

How the data were processed

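The RNA-seq libraries of C17.2 cells, 3 H/R and 3 control, were grouped by their labels. Per the labels and the study's methods, the authors used cutadapt 1.9.3 for trimming, HISAT2 2.0.4 for alignment to mm10 (STAR 2.5.1b for circRNAs) and HTSeq 0.9.1 for gene counts. The deposited values used are raw counts per gene, per lncRNA transcript (63958 lines for 23098 transcripts) and per circRNA junction (2805 circRNAs). The counting tool for lncRNAs, the strand setting and the annotation release are not given in the sources used here. A further 18 columns with per-sample values were left aside, as were the authors' columns of fold changes and p-values.

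Each table was analysed alone in R 4.3.3 with edgeR 4.0.16 (filterByExpr, TMM, quasi-likelihood test, Benjamini-Hochberg, threshold 0.05), after a test on simulated data. Gene structures came from GENCODE vM21 and promoters from RefSeq. CPM per kb used merged exons. Named genes were the 5 genes and their transcripts, of each list the 4 genes with the smallest adjusted p in either direction, and the 3 nearest genes per member averaging at least 5 CPM, and other list genes given with values were chosen after these were seen. Members and lists were chosen with earlier results of these data known. Alternatives were DESeq2 1.42.0, RLE size factors, library totals without scaling, a filter of 1 CPM in 3 libraries or none, thinning of the H/R libraries to control depth, a block for replicate number, single libraries left out, and the length of the longest coding transcript.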

Additional observations from a re-analysis of the deposited data

How the results depend on the processing

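Txnip, Arrdc3 and Arrdc4 stayed higher in H/R under every alternative run. With single libraries left out, the log2 fold change was 1.17 to 1.45 for Txnip, 1.89 to 2.11 for Arrdc3, 1.54 to 1.87 for Arrdc4 and 2.85 to 3.40 for ENSMUST00000159090. Without scaling factors, Txnip was at 1.51 and Arrdc3 at 2.18, 3704 genes were called higher and 1272 lower (74.4% of calls higher, against 49.7% with TMM), 18 and 7 genes of the lists were called higher and lower, and Nedd4 reversed to 0.01. Leaving out single libraries gave 5 to 9 list genes higher and 10 to 19 lower, and 78 to 184 lncRNA transcripts higher and 78 to 148 lower. With the longest coding transcript as length, levels per kb were 50.9 for Txnip in H/R, 35.0 in H/R and 8.99 in control for Arrdc3, 3.46 in H/R and 2.78 in control for Arrdc2, and 0.914 for Arrdc1 in H/R. The replicate numbers did not pair the samples (correlations of same-numbered deviations 0.00417 to 0.0392). With the number as a block, 2039 genes were called higher and 1998 lower, Txnip was at 1.31 and Arrdc3 at 1.98, and of the named list genes Nedd4 alone lost its call. Of the named list genes' values under single alternatives, 230 kept their direction and call, 29 lost the call and 1 reversed. The causes were not tested. Counts of Arrdc1, 2 to 39 per library, limit what can be said of it.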

Other observations

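The following genes were picked after their values were seen. In several stress and sorting genes of the lists, the control libraries spread more widely than the H/R libraries. Srxn1, which encodes sulfiredoxin, was at 96.7, 94.5 and 99.5 CPM in H/R and at 76.3, 142 and 201 CPM in control. Txnrd1, which encodes thioredoxin reductase, was at 563, 595 and 628 CPM in H/R and at 538, 824 and 1024 CPM in control. Vps26a, a retromer subunit, was at 193, 187 and 230 CPM in H/R and at 180, 298 and 420 CPM in control. In each of these, control replicate 1 lay below the H/R range and the other control replicates above it, and none of these passed the edgeR test (adjusted p = 0.0977, 0.0664 and 0.0587). Vps37b had the same pattern, at 26.0, 19.9 and 20.7 CPM in H/R and at 19.3, 39.1 and 54.9 CPM in control. It was called lower all the same (adjusted p = 0.0458 by edgeR).

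Ldha, which encodes a lactate dehydrogenase subunit, had 47, 56 and 66 counts in H/R and 52, 44 and 39 counts in control. After scaling this was 2.585, 3.327 and 3.884 CPM in H/R against 6.702, 5.715 and 5.837 CPM in control, without overlap. The log2 fold change was −0.90, and it did not pass (adjusted p = 0.058 by edgeR). Near-identical copies of this gene exist, and how reads shared with them were counted is not given in the sources used here, so these counts are uncertain as a measure of its expression.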
